A study of Mus musculus with 15 samples.

Results

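Potassium channel genes were taken as every protein-coding gene whose symbol starts with Kcn, with the non-coding Kcnq1ot1 left out. The rule found 94 genes among the 55573 rows of the deposited count table, and the 66 with a mean of at least 10 counts over the 15 samples are described here. The samples are right trigeminal ganglia (TG) of CD1 mice, the ganglia that hold the cell bodies of the corneal sensory nerves. In all 3 groups the centre of the right cornea had been injured inside a 2-mm trephine mark, the eye was treated 3 times per day, and the ganglion was taken on day 12. The mice were males bought at 10 weeks of age, according to the methods of the study. The groups, of 5 ganglia each, received vehicle (replicates 1 to 5), RvD6-standard, the docosahexaenoic acid derivative resolvin D6 (replicates 6 to 10), or RvD6-isomer, a stereoisomer of it found in mouse tears (replicates 11 to 15). The amounts of lipid given to these mice are not given in the sources used here, and no ganglion of an uninjured mouse was part of the comparison, so the values describe treated against vehicle-treated injured mice only.

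Potassium channels let potassium leave a neuron, which holds its resting potential and ends each action potential, so their number and type set how readily a sensory neuron fires. Voltage-gated (Kv) channels are tetramers of alpha subunits. Silent Kv subunits form no channel alone and change the gating of partner alpha subunits, while auxiliary subunits such as the Kcnip calcium sensors set how many channels reach the membrane and how fast they inactivate. Calcium- and sodium-activated channels follow spiking, tandem-pore (Kcnk) channels carry the leak current, and inward rectifiers (Kcnj) include the glial channel that takes up potassium around neurons. Nerve injury and inflammation are known to alter the expression of several of these families in sensory ganglia.

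Total counts per ganglion ranged from 4125962 to 9903396, with a median of 7756538, and 68 to 82 of the 94 genes had at least 1 count in a ganglion. Their counts together were 0.230 to 0.298% of all counts in vehicle ganglia, 0.224 to 0.279% in RvD6-standard ganglia and 0.276 to 0.308% in RvD6-isomer ganglia, and the 3 ranges overlapped. Among the 94 genes, 28 had a mean of 0.133 to 9.73 counts and are only counted here. The nearest genes below the limit were Kcne1l at 9.73 and Kcng1 at 9.33 mean counts, and the nearest above it were Kcnrg at 12.1 and Kcne4 at 12.4. All 66 reported genes passed the filter on low counts that preceded the tests, so none was lost to it. Markers of sensory neurons, satellite glia and myelinating Schwann cells summed to between 6152 and 21260 CPM (counts scaled to the same library size) in every group, and no marker of any cell type list was at 0 in all ganglia of a group. That includes the skeletal muscle and pituitary lists, so detection alone does not set the ganglion apart from other tissue. The pituitary sum ran from 8.66 to 3744 CPM in vehicle ganglia.

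The channel genes spanned a wide range of levels. Given as TPM, counts per exonic length scaled to the same total in each ganglion, 3 of the 66 genes had a mean of at least 100 TPM, 26 at least 10 and all 66 at least 1. Kcnk1, a tandem-pore channel of the weakly inward-rectifying kind (chromosome 8, 125995170 to 126030685, plus strand, GRCm38; 8.01% of its exonic bases lie under an antisense gene), had the highest mean at 229 ± 43.9 TPM (SD, n = 15), followed by Kcna1, a delayed rectifier alpha subunit of myelinated axons, at 191 ± 32.9 TPM. Kcns3, a silent subunit that joins other alpha subunits, came next at 116 ± 37.8 TPM. Kcnk1 and Kcna1 together held 30.3 ± 2.25% (SD, n = 15) of the summed TPM of the 94 genes, and the 10 highest genes held 66.2 ± 2.67%. The order among neighbours was not firm. Kcnk1 was above Kcna1 in 10 of 15 ganglia, Kcna1 above Kcns3 in 14 and Kcns3 above Kcnip2 in 12, and the ranges of all 11 neighbouring pairs among the 12 highest genes overlapped. The exonic length counts all annotated exons of a gene, which need not match its transcripts in the ganglion. In raw counts Kcna1, with a mean of 2822, stood above Kcnk1, with 1600.

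**Figure D1:**
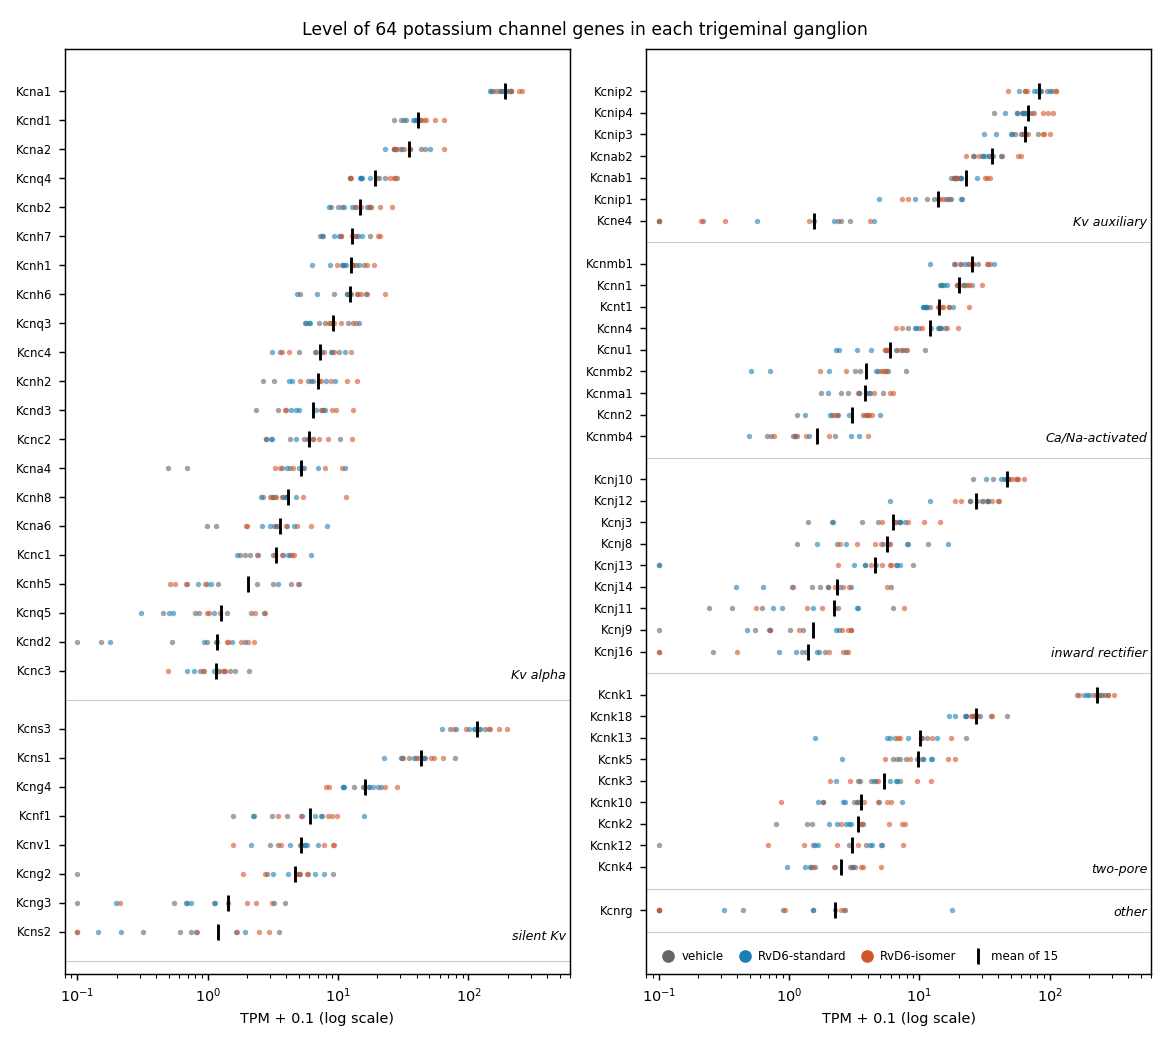
Level of 64 of the 66 potassium channel genes in each of the 15 ganglia, as TPM plus 0.1 on a log axis, grouped by subfamily, with the mean of the 15 as a black bar; a point at the left edge is a ganglion without counts. Kcnk1 at 229 TPM, Kcna1 at 191 TPM and Kcns3 at 116 TPM stand at the top, and points of the 3 groups are mixed along most rows.

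The Kv alpha subunits were the largest subfamily, with 23 reported genes of 30, and held 29.8 ± 4.43% (SD, n = 15) of the channel TPM. Kcna1 lies on chromosome 6 at 126640397 to 126646384 (minus strand, GRCm38), and its level ranged from 147 to 257 TPM. Kcna2, which assembles with it in juxtaparanodal channels, had 35.1 ± 11.5 TPM, and Kcna1 was 3.74 to 8.46 times above it in each of the 15 ganglia. Part of this ratio is length, at 4780 exonic bases for Kcna1 and 11906 for Kcna2. In CPM, which leaves length out, the vehicle means were 362 and 175. Kcnd1, an alpha subunit of the rapidly inactivating A-type current, had 41.2 ± 9.67 TPM, while Kcnd3 had 6.35 TPM and Kcnd2, the A-type subunit most described in brain, 1.07 TPM. Kcnd1 was thus the most abundant of its family, 3.30 to 12.8 times above Kcnd3 in each ganglion. Length enters here too, at 5287 exonic bases for Kcnd1 and 9587 for Kcnd3, and the vehicle means in CPM were 78.05 and 20.3. Kcnb2, a delayed rectifier subunit, had 14.6 TPM.

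Some silent and auxiliary genes were among the highest of the 66. The 8 reported silent genes held 13.9 ± 2.75% of the channel TPM, and Kcns3 was 1.5 to 4.91 times above Kcns1, the other abundant one, which had 43.4 ± 14.4 TPM. The 7 reported auxiliary genes held 20.7 ± 1.39%. The calcium-sensing partners of Kcnd channels, Kcnip2 at 82.2 ± 19.5 TPM, Kcnip4 at 67.9 ± 18.2 TPM and Kcnip3 at 64.6 ± 19.2 TPM, each had a higher mean than Kcnd1 itself. Kcnip4 was above Kcnip3, which is also known as a transcriptional repressor, in 7 of 15 ganglia, so their order was not kept. Kcnab2 and Kcnip1 were below the most abundant of their partners only. Kcnab2, a beta subunit of the Kcna channels, had 35.8 ± 10.7 TPM against 191 TPM for Kcna1 and 35.1 TPM for Kcna2. Kcnip1 had 13.7 TPM, below Kcnd1 at 41.2 TPM but above Kcnd3 at 6.35 TPM and Kcnd2 at 1.07 TPM.

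The remaining subfamilies each had 1 or a few abundant genes. Among the tandem-pore channels, with 9 reported genes of 14 and 21.2 ± 2.51% of the channel TPM, Kcnk18 was the next after Kcnk1. Kcnk18, a leak channel known for its expression in trigeminal sensory neurons, had 27.2 ± 7.55 TPM and was 4.59 to 12.4 times below Kcnk1 in each ganglion. The lipid- and stretch-sensitive channels Kcnk2 and Kcnk4 were low, at 3.28 and 2.39 TPM. Among the inward rectifiers, with 9 reported genes of 15 and 7.03 ± 0.820%, Kcnj10 led at 46.7 ± 9.83 TPM. Kcnj10 is the satellite glial channel that clears potassium, and it lies on chromosome 1 at 172341210 to 172374085 (plus strand). Its common partner Kcnj16 had 1.29 TPM and was at 0 in 2 ganglia. Among the calcium- and sodium-activated genes, with 9 reported of 12 and 6.44 ± 0.556%, the auxiliary gene Kcnmb1, best known from smooth muscle, had 25.2 ± 7.06 TPM and was 3.57 to 16.9 times above Kcnma1, the pore-forming subunit it joins. Part of this ratio is length, at 4191 exonic bases for Kcnmb1 and 16976 for Kcnma1. In CPM, which leaves length out, the vehicle means were 41.1 and 22.9. Kcnrg, a regulator that is not a channel, made up the rest with 2.16 ± 4.41 TPM, a mean that rests on RvD6-standard replicate 7 at 17.7 TPM and is 1.06 TPM without it.

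**Figure D2:**
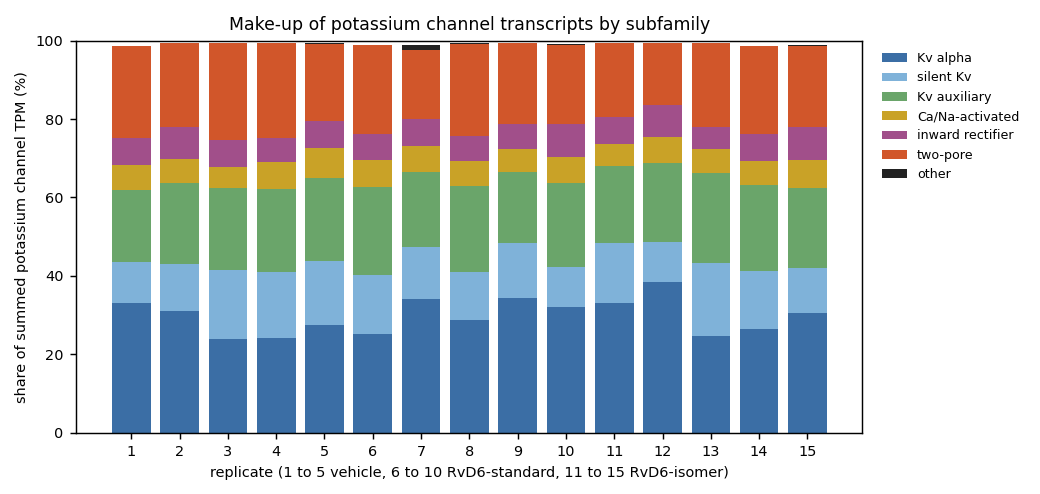
Share of the summed TPM of the 94 potassium channel genes held by the reported genes of each subfamily, 1 bar per ganglion, in percent; the gap to 100 is the 28 genes under 10 mean counts, which held 0.797% on average. The Kv alpha share runs from 23.8 to 38.5%, the tandem-pore (two-pore in the key) share from 15.8 to 24.8% and the calcium- and sodium-activated share from 5.47 to 7.55%.

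The spread between ganglia followed the depth behind each gene. The median coefficient of variation of CPM over the 15 ganglia was 26.6% for the 19 genes with at least 300 mean counts and 70.6% for the 15 genes between 10 and 30 counts, where counting alone gives 24.2% at the median count. Low genes such as Kcnk2 and Kcnk4 were therefore measured with less precision than Kcna1 or Kcnk1. In TPM the median of all genes tested moved by 0.21 on the log2 scale between RvD6-isomer and vehicle, so the comparisons of groups below use CPM scaled by the trimmed mean of M values (TMM), and TPM serves for levels between genes only.

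RvD6-isomer was compared with vehicle to ask whether the isomer shifted these genes in the ganglion of the injured eye. No potassium channel gene passed the test. The quasi-likelihood F test of edgeR over 16567 genes, with Benjamini-Hochberg adjustment, called 0 of 66 at an adjusted p below 0.05, where it called 111 of all genes (0.67%), and the smallest adjusted p among the 66 was 0.198, for Kcnj3. At an unadjusted p below 0.05, 5 of the 66 were higher and 0 lower, beside 8.69% of all genes higher and 7.3% lower. The count of 5 was thus near the background and that of 0 below it. DESeq2 with all samples called 920 of the 11321 genes that it gave an adjusted p (8.13%), and 0 of the 46 channel genes among them. The fold changes leaned upward, with 44 of 66 above 0 and a median of 0.19 on the log2 scale against 0.02 for all genes tested.

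The 5 genes came from several subfamilies. Kcnk2, the stretch- and lipid-sensitive leak channel (chromosome 1, 189207930 to 189402273, minus strand), had 2.82, 6.83, 8.25, 2.75 and 1.49 CPM in the vehicle ganglia and 13.2, 10.8, 4.48, 6.65 and 13.8 CPM in the RvD6-isomer ganglia. Of the RvD6-isomer ganglia 3 lay above all vehicle ganglia and 2 among them. The log2 fold change was 1.14 ± 0.44 (SE), with an edgeR adjusted p of 0.205. Kcnj3, a G-protein-gated inward rectifier that dampens neurons when opioid or other inhibitory receptors are active (chromosome 2, 55435970 to 55598145, plus strand), had 10.1, 14.9, 5.02, 7.97 and 2.98 CPM in vehicle and 19.6, 28.0, 9.99, 16.04 and 13.1 CPM in RvD6-isomer ganglia. The groups overlapped in the range from 9.99 to 14.9 CPM. Its log2 fold change was 1.09 ± 0.41 with an adjusted p of 0.198. An antisense gene covers 31.1% of the exonic bases of Kcnj3 and 12.2% of those of Kcnk2, and reads on both genes were not counted, so part of their signal is missing.

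The other 3 had smaller differences. Kcnh2, a channel whose slow current limits repeated firing (chromosome 5, 24319589 to 24351604, minus strand), had 11.6, 12.6, 7.02, 15.0 and 5.39 CPM in vehicle and 23.5, 13.3, 16.1, 9.25 and 21.8 CPM in RvD6-isomer ganglia, a log2 fold change of 0.70 ± 0.33. Kcnip4 had 55.5, 83.0, 108, 97.7 and 96.2 CPM in vehicle and 135, 103, 134, 123 and 98.1 CPM in RvD6-isomer ganglia, a difference of 0.43 ± 0.19. Kcnd1, the A-type alpha subunit that Kcnip proteins join (chromosome X, 7822289 to 7838280, plus strand), had 85.8, 92.2, 80.3, 70.2 and 61.8 CPM in vehicle and 104, 129, 95.5, 91.8 and 87.7 CPM in RvD6-isomer ganglia, a difference of 0.38 ± 0.15. In Kcnd1 3 of the 5 RvD6-isomer ganglia lay above every vehicle ganglion, and in all 3 genes the groups overlapped. Their adjusted p values in the edgeR test were 0.305, 0.266 and 0.210.

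One gene separated the groups by its values without a small p. Kcnd2, named here after its values were seen, had 0.906, 2.24, 2.12, 0 and 0.115 CPM in vehicle and 3.90, 2.53, 3.33, 2.60 and 3.85 CPM in RvD6-isomer ganglia, and it was the only 1 of the 66 whose 5 RvD6-isomer ganglia all lay above the 5 vehicle ganglia. Over all genes tested, 2.45% separated this way upward and 2.46% downward, and 0 of the 66 did so downward. Its mean of 15.9 counts makes the estimate imprecise, with a log2 fold change of 1.57 and a 95% confidence interval from -0.15 to 3.29 (edgeR adjusted p = 0.365). Its RvD6-standard ganglia had 1.95, 2.21, 4.29, 0.171 and 3.20 CPM and overlapped both groups.

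**Figure D3:**
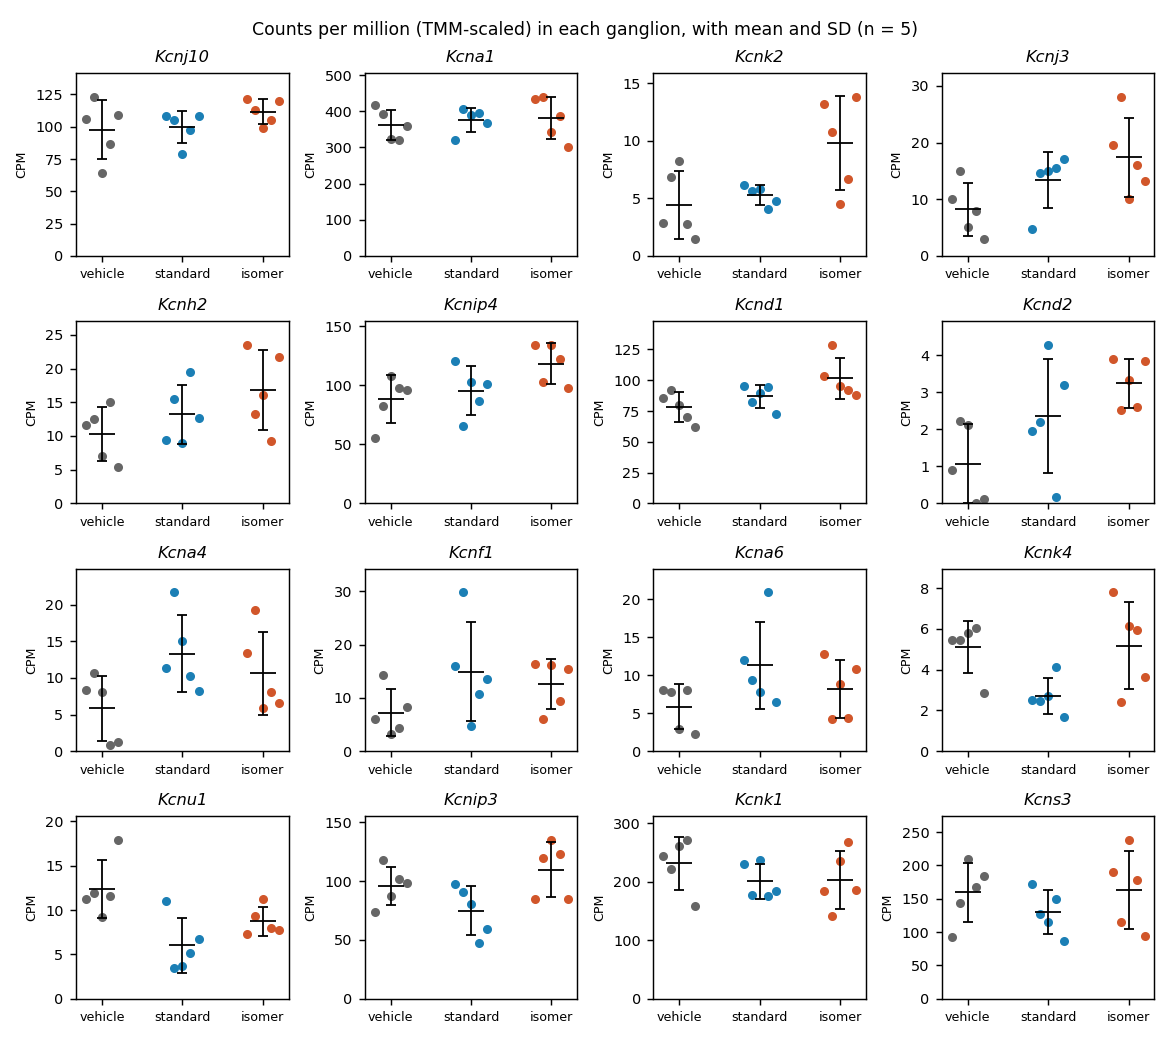
CPM in each ganglion for 16 potassium channel genes, with the mean and SD of each group of 5; axes start at 0 and differ between panels. Kcnd2 is the only panel in which the RvD6-isomer points, from 2.53 to 3.90 CPM, all lie above the vehicle points, which reach 2.24 CPM.

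For the glial and axonal marker genes the confidence intervals included 0. Kcnj10 had 64.4 to 123 CPM in vehicle ganglia (median 106), 78.5 to 109 CPM in RvD6-standard ganglia and 99.0 to 121 CPM in RvD6-isomer ganglia, and its log2 fold change in RvD6-isomer was 0.19 ± 0.16 (95% confidence interval -0.14 to 0.53). Kcna1 had 321 to 416 CPM in vehicle and 302 to 439 CPM in RvD6-isomer ganglia, with a log2 fold change of 0.07 ± 0.13 (-0.20 to 0.34). A two-sided exact permutation test of 5 against 5 ganglia gave p = 0.254 for Kcnj10 and p = 0.643 for Kcna1, where the smallest p this design allows is 0.00794. For both genes these intervals leave out a change of 1.5-fold or more in either direction. Kcnk1 differed by -0.19 ± 0.18, Kcns3 by 0.03 ± 0.25, Kcnip2 by -0.29 ± 0.22 and Kcns1 by -0.20 ± 0.26, with edgeR adjusted p values from 0.562 to 0.970.

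By subfamily, the upward lean was widest among the Kv alpha genes, where 18 of 23 were above 0 with a median of 0.35, 2 at an unadjusted p below 0.05. The inward rectifiers had 5 of 9 above 0 with a median of 0.19, the silent subunits 5 of 8 with 0.17, the auxiliary genes 4 of 7 with 0.09, the calcium- and sodium-activated genes 6 of 9 with 0.09 and the tandem-pore genes 5 of 9 with 0.02. No subfamily had a called gene. These medians describe the lists and were not tested.

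**Figure D4:**
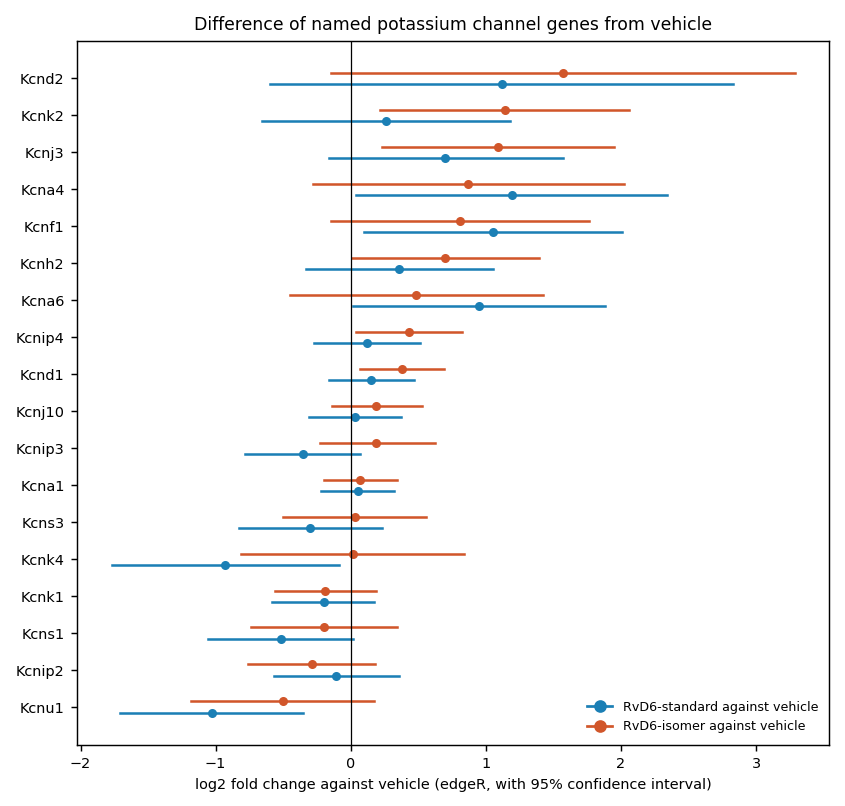
log2 fold change against vehicle, with 95% confidence intervals from edgeR, for 18 named potassium channel genes in RvD6-isomer and RvD6-standard ganglia, ordered by the RvD6-isomer value. Intervals that leave out 0 belong to Kcnk2, Kcnj3, Kcnh2, Kcnip4 and Kcnd1 in RvD6-isomer and to Kcna4, Kcnf1, Kcna6, Kcnk4 and Kcnu1 in RvD6-standard ganglia, and none of these passed the adjusted test.

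RvD6-standard was compared with the same vehicle ganglia. No potassium channel gene was called, and neither was any other gene, 0 of 16567 in edgeR (0%). DESeq2 with all samples called 369 of 19190 genes (1.92%) and 0 of the 66. At an unadjusted p below 0.05, 3 channel genes were higher and 2 lower, beside 7.63% of all genes higher and 5.99% lower, so neither count was above the background. These counts depended on the processing, with 0 higher and 5 lower once the trend on gene length was removed and 1 higher and 4 lower once that on GC content was removed. The median log2 fold change of the 66 was 0.01 against 0.02 for all genes, and 34 of 66 were above 0. None of the 66 separated the groups in either direction, where 2.15% of all genes did so upward and 1.62% downward. The smallest adjusted p in edgeR was 0.191, for Kcnu1.

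The 5 genes at an unadjusted p below 0.05 are given with their values, and the vehicle ganglia are those of the first comparison. Kcnu1, a pH-sensitive channel known from sperm (chromosome 8, 25849623 to 25937939, plus strand), had 11.3, 11.9, 9.25, 11.5 and 17.9 CPM in vehicle and 11.1, 3.44, 3.70, 5.14 and 6.68 CPM in RvD6-standard ganglia. Of the RvD6-standard ganglia 4 lay below every vehicle ganglion and 1 among them. Its log2 fold change was -1.03 ± 0.33, and its RvD6-isomer value was -0.50 ± 0.32. Kcnk4, a tandem-pore channel opened by stretch and by polyunsaturated lipids (chromosome 19, 6923966 to 6934515, minus strand), had 5.44, 5.47, 5.80, 6.05 and 2.87 CPM in vehicle and 2.50, 2.45, 2.73, 4.11 and 1.67 CPM in RvD6-standard ganglia. Only vehicle replicate 5 lay within the RvD6-standard range. The log2 fold change was -0.93 ± 0.40 (edgeR adjusted p = 0.321), and 13.1% of the exonic bases of Kcnk4 are shared with a neighbouring gene on the same strand.

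Of the 3 higher genes, Kcna4, an A-type alpha subunit of small sensory neurons (chromosome 2, 107290639 to 107298502, plus strand), had 8.36, 10.7, 8.03, 0.825 and 1.26 CPM in vehicle and 11.4, 21.7, 15.0, 10.3 and 8.22 CPM in RvD6-standard ganglia, a log2 fold change of 1.19 ± 0.55. The silent subunit gene Kcnf1 had 3.23 to 14.3 CPM in vehicle and 4.68 to 29.8 CPM in RvD6-standard ganglia, a difference of 1.05 ± 0.45. Kcna6, a delayed rectifier subunit of the Kcna1 family, had 2.29 to 8.11 CPM in vehicle and 6.41 to 20.9 CPM in RvD6-standard ganglia, a difference of 0.95 ± 0.44, and an antisense gene covers 39.6% of its exonic bases. The ranges overlapped in all 3, and their edgeR adjusted p values lay between 0.322 and 0.360. With the length trend removed none of the 3 stayed at an unadjusted p below 0.05, at fold changes of 1.04, 0.89 and 0.80 on the log2 scale. In RvD6-isomer ganglia the same genes had fold changes of 0.87 ± 0.55, 0.81 ± 0.46 and 0.48 ± 0.45 on the log2 scale. The marker genes were nearly level, with 0.03 ± 0.16 for Kcnj10 and 0.05 ± 0.13 for Kcna1 (exact permutation p = 0.841 and 0.619). Kcns1 differed by -0.52 ± 0.26, Kcns3 by -0.30 ± 0.25, Kcnk1 by -0.20 ± 0.18 and Kcnip2 by -0.11 ± 0.22.

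Cell type markers differed in the RvD6-standard group, although edgeR called no gene against vehicle there. The summed level of 10 sensory neuron markers was 7737 to 14740 CPM there against 13640 to 15700 CPM in vehicle and 12550 to 16640 CPM in RvD6-isomer ganglia, and 5 of the 10 were lower than in vehicle at an unadjusted p below 0.05, with a median of -0.39 on the log2 scale. In a whole ganglion, fewer cells of a type and less RNA per cell cannot be told apart. All 7 tested skeletal muscle markers were higher at that p (median 4.03), as were 5 of 5 erythroid (1.46) and 8 of 8 neutrophil precursor markers (2.57). Over all genes 7.63% were higher and 5.99% lower at that p. The smallest edgeR adjusted p was 0.175 in the neuron list and 0.0967 in the muscle list. It was 0.191 in the erythroid list and 0.190 in the neutrophil precursor list. The muscle sum was 78.0 to 2284 CPM against 17.1 to 144 CPM in vehicle, the erythroid sum 5720 to 10510 against 2379 to 5052 CPM, and the neutrophil precursor sum 688 to 2224 against 109 to 583 CPM. In RvD6-isomer ganglia the neuron list had a median of -0.01 and the muscle list one of -1.10. The erythroid sum ran from 935 to 11960 CPM there, with 1366 CPM in the middle ganglion, below the vehicle range. The neutrophil precursor sum ran from 53.9 to 1943 CPM, with 72.1 CPM in the middle ganglion, also below the vehicle range. The median log2 fold changes of these lists were 0.04 and 1.08. The satellite glia list had medians of 0.18 in RvD6-isomer and 0.01 in RvD6-standard, the Schwann cell list 0.40 and 0.14, the vascular list 0.19 and 0.60, the macrophage list -0.23 and 0.26, the B lineage list 0.16 and 1.35, and the pituitary list -0.99 and 0.34. The part of these markers in the values of the channel genes was not tested.

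The 2 lipids, which are stereoisomers and followed the same schedule, were then compared with each other. edgeR called 39 of 16567 genes (0.235%) and 0 of the 66 channel genes. DESeq2 called 185 of 19769 genes (0.936%) and also 0 of the 66. At an unadjusted p below 0.05, 2 channel genes were higher with RvD6-isomer and 0 lower, beside 4.18% and 4.64% of all genes. No channel gene separated the groups, where 0.712% of all genes did so upward and 1.1% downward. The median difference of the 66 was 0.20 on the log2 scale against -0.00 for all genes, and 44 of 66 were above 0, a comparison that shares its RvD6-isomer ganglia with the first one. Cell type markers differed in the same comparison. The sensory neuron markers were above 0 in 10 of 10 with a median of 0.38, and 0 of them were called. Of the 7 skeletal muscle markers 6 were called lower, with a median of -5.30. The part of these markers in the channel values was not tested. Kcnip3 had 84.6, 120, 135, 123 and 84.7 CPM with RvD6-isomer and 97.1, 90.9, 80.7, 47.3 and 58.9 CPM with RvD6-standard. The upper 3 RvD6-isomer ganglia lay above all RvD6-standard ganglia and the lower 2 among them, a difference of 0.55 ± 0.20 (95% confidence interval 0.12 to 0.97, edgeR adjusted p = 0.404). Kcnk4 had 7.79, 2.42, 6.15, 5.93 and 3.63 CPM with RvD6-isomer, a difference of 0.95 ± 0.40 from RvD6-standard (0.10 to 1.79, adjusted p = 0.496), and 0.02 ± 0.39 from vehicle. For Kcnk2 the difference was 0.88 ± 0.44 (-0.04 to 1.79), for Kcnj10 0.16 ± 0.16 (-0.18 to 0.50) and for Kcna1 0.02 ± 0.13 (-0.25 to 0.29), with exact permutation p values of 0.119 for Kcnj10 and 0.944 for Kcna1. The 2 lipids were thus not shown to differ in any channel gene, and intervals within 2-fold were reached for 29 of the 66.

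Genes that work with potassium channels were read from 2 further lists. Of 25 genes whose products anchor, join or sense for the channels, 22 were tested. In RvD6-isomer against vehicle 0 were called, 7 were higher and 1 lower at an unadjusted p below 0.05, where 8.69% of all genes were higher and 7.3% lower, and the median was 0.19. The 7 were Adam22 at 0.52 ± 0.16, Adam23 at 0.37 ± 0.17 and Lgi1 at 0.50 ± 0.21, which belong to the trans-synaptic complex that holds Kcna channels, Cntn2 at 0.35 ± 0.14, Epb41l3 at 0.32 ± 0.14 and Dlg2 at 0.67 ± 0.23, which cluster them at the juxtaparanode or under the membrane, and Abcc8 at 0.78 ± 0.36, the sulfonylurea receptor of ATP-sensitive channels. The scaffold gene Dlg1 was the lower one, at -1.27 ± 0.50. The smallest adjusted p of the list was 0.115, for Adam22. In RvD6-standard 0 were higher at that p, and the median was -0.01. Between the lipids 4 were higher and 1 lower, beside 4.18% and 4.64% of all genes, and Cntn2 had the smallest p, with a difference of 0.56 ± 0.14 (edgeR adjusted p = 0.156).

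The second list held 16 genes of potassium uptake and buffering, 15 of them tested. The glial gap junction gene Gja1 differed by 1.24 ± 0.38 in RvD6-isomer against vehicle (edgeR adjusted p = 0.112) and by 0.93 ± 0.38 in RvD6-standard (0.297). Glul, the glutamine synthetase of satellite glia, differed by -0.68 ± 0.23 in RvD6-isomer (0.152) and by -0.22 ± 0.23 in RvD6-standard (0.714). The list's median was 0.16 in both lipids, with 12 of 15 above 0 in RvD6-isomer and 11 of 15 in RvD6-standard.

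Gene length moved with these differences. The 66 genes had a median exonic length of 4572 bases against 3968 for all genes tested, and fold changes in both lipids increased with length over all genes. All genes were put into 5 equal classes by exonic length. In RvD6-isomer against vehicle the median of all genes went from -0.27 in class 1, the shortest, to 0.15 in class 5, while the channel genes had -0.24 in class 2 (12 genes), 0.24 in class 3 (24), 0.48 in class 4 (14) and 0.33 in class 5 (15). From class 3 on the channel medians were above those of all genes of like length. In RvD6-standard they were -0.25, 0.05, 0.09 and -0.01 in the same classes, against -0.10, 0.03, 0.13 and 0.17 for all genes. With the smooth trend on length removed from each ganglion, the median of the 66 in RvD6-isomer became 0.07 against -0.03 for all genes, with 37 of 66 above 0, and 2 genes, Kcnj3 and Kcnk2, remained at an unadjusted p below 0.05. Between the lipids the median of the 66 was then 0.21 against 0.06 for all genes, where it had been 0.20 against -0.00.

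**Figure D5:**
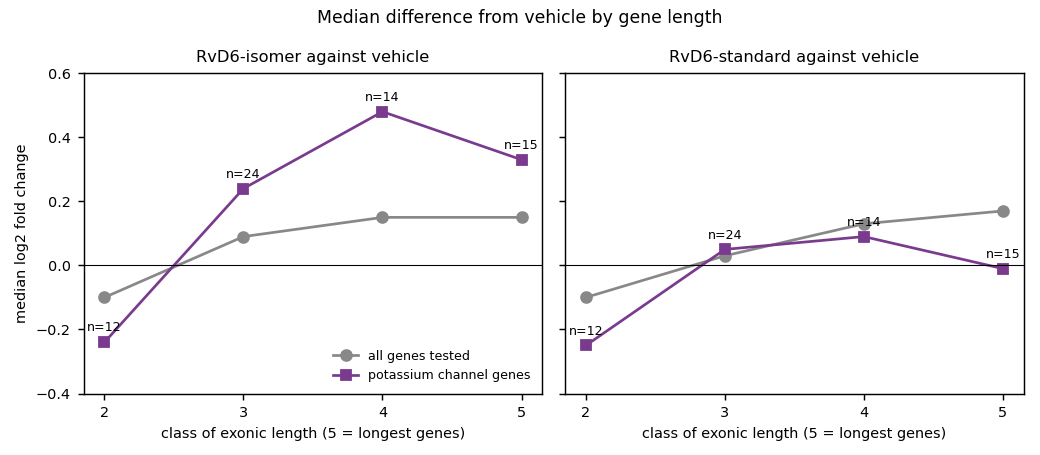
Median log2 fold change against vehicle by class of exonic length (5 classes of equal size), for all genes tested and for the potassium channel genes, whose number is given at each point; the shortest class, with 1 channel gene, is not drawn. In RvD6-isomer ganglia the channel genes reach 0.48 in class 4 against 0.15 for all genes, and in RvD6-standard ganglia 0.09 against 0.13.

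The precision set what could be seen. The median SE of a log2 fold change among the 66 genes was 0.35, and it ran from 0.13 for Kcna1 to 1.30 for Kcnrg in RvD6-isomer against vehicle. The 95% confidence interval lay within a 2-fold change in either direction for 28 of the 66 genes in RvD6-isomer and 30 in RvD6-standard, and within 1.5-fold for 9 and 13. For the remaining genes a change of 2-fold was not excluded at this depth and number of ganglia.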

How the data were processed

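Right TG of 15 mice, 5 per group, were profiled with an adapted, unstranded Smart-seq2 protocol. The authors aligned reads to GRCm38 with Rsubread and counted them on exons (GENCODE M22) with featureCounts (Subread 1.6.5 in the submitters' processing notes, 1.5.0-p1 in the file header). The deposited values are raw counts for 55573 genes, and reads on several places or genes were not counted. Symbols were matched by gene ID to GENCODE M21 (99.8% named), and positions are those of the count table.

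TMM scaling, the filter on low counts (minimum count 10, minimum total 15) and the quasi-likelihood F test were run in edgeR 4.0.16 (R 4.3.3) on all 15 samples in 3 groups, with Benjamini-Hochberg adjustment over 16567 genes and a threshold of 0.05. Alternatives were DESeq2 1.42.0, fits of 2 groups, other normalization and filters, removal of length or GC trends (lowess, span 0.3), thinned counts and 15 fits without 1 sample. DESeq2 with 2 groups and the TPM ratio were added after the data were seen. The steps were tested on simulated data. No pair of samples of the same group was a copy (chi-square per degree of freedom of 11.3 to 49.2 in 30 pairs). The labels name no batch, pairing or animal, so p-values set the group differences against the spread between these samples within groups.

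The channel genes and all lists were chosen with earlier results of these data known. Named are Kcnj10 and Kcna1, the genes with the largest change at an unadjusted p below 0.05 (up to 6 per direction for each lipid, up to 3 between lipids), the 10 highest in TPM and the highest of each subfamily, and other channel genes by level only. Some genes of the lists are not reported here by name.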

Additional observations from a re-analysis of the deposited data

Results flagged for a closer look

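In 3 of 60 groups examined (20 named channel genes in 3 groups of 5 ganglia) a single ganglion stood far from the other 4, and chance gives about 1 in 20. Kcnj3 was at 4.77 CPM in RvD6-standard replicate 6, where the other 4 ganglia of the group had 14.6 to 17.1 CPM. Kcnk4 was at 2.87 CPM in vehicle replicate 5, where the other 4 had 5.44 to 6.05 CPM. Kcnrg was at 12.9 CPM in RvD6-standard replicate 7, where the other 4 had 0 to 2.14 CPM.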

How the results depend on the processing

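No channel gene was called under any of the 24 other settings, in any of the 3 comparisons, and the smallest adjusted p reached was 0.0731, for Kcnj3 in RvD6-isomer against vehicle with DESeq2 on 2 groups. No paired analysis was possible because the groups share no replicate number. The counts over all genes depended on the setting. For RvD6-isomer against vehicle (111 called) they were 920 with DESeq2, 979 with DESeq2 on 2 groups, 315 with at least 10 counts in every sample, 47 with the length trend removed, and 0 (without RvD6-isomer replicate 11) to 229 (without RvD6-standard replicate 9) with 1 sample left out. For RvD6-standard against vehicle (0 called) they were 369 with DESeq2, 664 with DESeq2 on 2 groups, 38 with edgeR on 2 groups, 56 without a filter, 24 with at least 10 counts in every sample, 24 with thinned counts and 0 to 51 with 1 sample left out. For RvD6-isomer against RvD6-standard (39 called) they were 185 with DESeq2, 182 with DESeq2 on 2 groups, 17 with edgeR on 2 groups, 59 without a filter, 23 with at least 10 counts in every sample and 2 to 156 with 1 sample left out. Fewer genes are tested under the stricter filter and fewer samples enter a fit of 2 groups, and the cause of the other differences was not tested.

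The median of the channel genes moved to -0.14 in RvD6-standard against vehicle with the length trend removed, and as a ratio of mean TPM to 0.37 in RvD6-isomer against vehicle and 0.41 between the lipids, where the median of all genes was 0.21 and 0.20, so that the channel genes lay above it by 0.17 and 0.21. Of 365 fold changes of single genes under other settings, 355 kept their direction. With the length trend removed, RvD6-isomer against vehicle became -0.08 for Kcna1, -0.13 for Kcnk4 and -0.03 for Kcns3, and RvD6-standard against vehicle became -0.14 for Kcnj10, -0.11 for Kcna1 and -0.01 for Kcnd1. With the GC trend removed, RvD6-standard against vehicle became -0.03 for Kcnj10, -0.00 for Kcna1 and -0.11 for Kcnip4, and with at least 10 counts in every sample Kcna1 between the lipids became -0.00. With 1 sample left out, 597 of 615 kept their direction, and the ranges that crossed 0 were, in RvD6-isomer against vehicle, -0.17 to 0.20 for Kcnk4, -0.15 to 0.17 for Kcns3 and -0.33 to 0.05 for Kcns1, in RvD6-standard against vehicle -0.09 to 0.12 for Kcnj10 and -0.02 to 0.23 for Kcnip4, and between the lipids -0.03 to 0.10 for Kcna1. At an unadjusted p below 0.05, Kcnk2 in RvD6-isomer, Kcnu1 in RvD6-standard and Kcnip3 between the lipids kept their side in all 15 such fits, Kcnj3 in 14, Kcnd1 in 13, Kcnip4 and Kcnf1 in 10, Kcna4 and Kcna6 in 9, and Kcnh2 in 7. Kcnk4 kept it in 8 against vehicle and 11 between the lipids. Of the 15 fits of a comparison, 5 left out a ganglion of the group not compared. Those 5 change only the filter, the scaling and the shared estimate of the spread. The counts above, 597 of 615 included, therefore overstate how far the differences were tried.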
